A study of Arabidopsis thaliana with 17 samples.

Results

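SA-induced genes that kept their response when BRCA2A was also mutated were followed in Arabidopsis thaliana plants. Salicylic acid (SA) is a hormone of plant immunity. A probe set, the group of probes on the array that reports 1 transcript, belonged to the set if its mean after SA exceeded its mean after water by at least 0.7 in npr1 sni1 plants (the double) on the log2(intensity + 16) scale. The same difference in npr1 sni1 brca2a plants (the brca2a triple) had to be at least 0.5 and at least 0.5 of that in the double, and in both genotypes the lowest SA array had to lie above the highest water array. Of 22746 probe sets, 115 met all conditions, which is 0.506% of them. Of 536 probe sets that met the conditions in the double alone (2.36% of all), 395 had a difference under 0.5 of that amount in the brca2a triple. These 395 include probe sets that were lower after SA there (median difference 0.060, lower quartile -0.21). A further 26 missed the size or the overlap condition in the brca2a triple. The arrays of the ssn2 triple (npr1 sni1 ssn2) did not enter the choice, and only they are used for a test.

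The study measured total RNA on 17 Affymetrix arrays in 6 groups: brca2a triple after SA (3 arrays), brca2a triple after water (3), ssn2 triple after SA (2), ssn2 triple after water (3), double after SA (3) and double after water (3). The soil-grown plants, labelled as seedlings, were 3 weeks old, were given water or SA at 0.5 mM and were taken after 16 hours. Every group carried npr1 and sni1, so no plant with a working NPR1 was measured, and replicates were separate experiments per the series design. For the ssn2 triple, titles and genotype entries were followed, since the treatment protocol attached to those samples speaks of brca2a.

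SA signals mainly through NPR1, a co-activator that works with TGA transcription factors on defence promoters. SNI1 represses those genes, and in npr1 sni1 plants SA can act without NPR1. BRCA2A and SSN2 both take part in homologous recombination. Both brca2a and ssn2 were studied as suppressors of sni1. Among the genes that SA is known to raise in leaves are receptor-like kinases at the cell surface, intracellular immune receptors with TIR or leucine-rich repeat domains, and enzymes that act on cell wall polymers.

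Median intensities of the arrays lay between 57.2 and 61.9. Replicates correlated at 0.994 or more over all probe sets (Pearson r, log2 scale), except that water replicate 2 of the double correlated at 0.981 and 0.980 with replicates 1 and 3. This array moved with the members. Their mean log2 level was 7.70 on it, against 7.09 and 7.11 on replicates 1 and 3. Over all probe sets the mean was 6.53 on it, against 6.52 and 6.55. It held the highest of the 3 water values of the double for 107 of 115 members. How often it was the highest over all probe sets was not counted. Without it 211 probe sets met the conditions, 106 of the 115 among them. The targeted genes have no probe set listed with 1 gene, so the array data do not check the genotypes. Of 9 leaf markers only RCA, the Rubisco activase gene, had such a probe set, with 10008 to 14773 on the single arrays. The root hair genes EXPA7 and EXPA18 summed to 34.5 to 50.9, and the flower, seed and senescence markers had none. In bulk tissue, fewer cells of a type and less RNA per cell cannot be told apart.

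Across the 115 members the SA effect (the difference of mean log2 levels, SA minus water) had a median of 0.82 in the brca2a triple (range 0.52 to 2.28) and of 0.99 in the double (range 0.70 to 3.19). The effect in the brca2a triple was 0.79 of that in the double at the median. For 25 members it was at least as large as in the double, and for 63 it reached 0.75 of it. The members were chosen by these values, which are given as a description. Levels of the 2 genotypes come from the same arrays, and the choice asked for a rise in the double, so their counts are a description too. After SA, 99 members had a lower mean in the brca2a triple and 16 a lower mean in the double. The median difference, brca2a triple minus double, was -0.33 on the log2 scale. Over all 22746 probe sets these counts were 9946 and 12800 (median 0.012). In water 13149 of all probe sets were higher in the brca2a triple (median 0.016). Of the members 88 were lower there and 27 higher (median -0.18). Without water replicate 2 of the double, that water difference turned round, to 48 lower and 67 higher (median 0.039), and the median share kept was 0.67. Without that array the effect in the brca2a triple was at least as large as in the double for 10 of the 115 members, and reached 0.75 of it for 42. The 9 members that left the set without it include AT3G49160 and AT1G61100, whose effects in the double were then 0.53 and 0.58. They also include AT4G38550, AT5G39020 and 1 probe set of AT5G44820, which then kept 0.49, 0.41 and 0.49 of the double's effect.

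**Figure D1:**
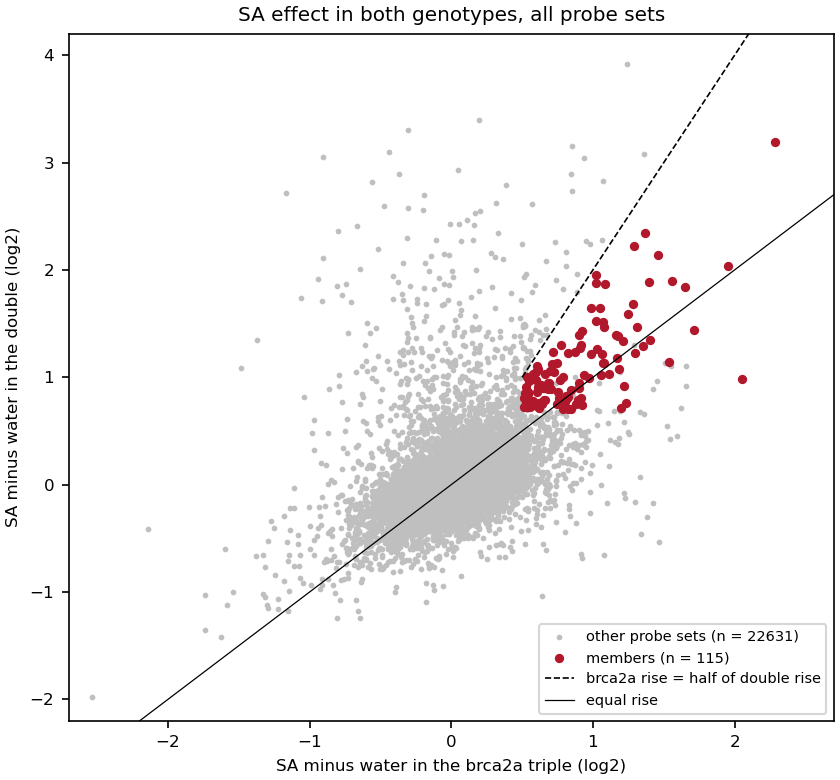
SA effect in the brca2a triple (horizontal axis, log2) against that in the double (vertical axis, log2), with 1 point per probe set. The 115 members lie right of the dashed line that marks 0.5 of the double's effect, and 25 lie on or below the line of equal effects (10 without water replicate 2 of the double).

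Members near a threshold differed little from probe sets outside it. AT4G25940 was nearest inside the limit on the double, with an effect of 0.70 there, and the nearest probe set outside had 0.699. On the brca2a triple the nearest values were 0.515 inside and 0.498 outside, and for the share kept 0.525 inside and 0.493 outside. The lowest SA array minus the highest water array in the double was 0.030 for AT3G45620, nearest inside, and -0.042 for AT5G05600, nearest outside. In the brca2a triple these gaps were 0.11 inside and -0.19 outside.

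In the ssn2 triple, whose arrays the choice did not use, 98 of the 115 members rose with SA, 5 fell and 12 did not pass the test (2 SA arrays against 3 water arrays, limma, adjusted p under 0.05 over all probe sets). Over all probe sets 33.2% passed in this comparison, 18.8% with a rise and 14.5% with a fall. The median SA effect was 0.84 over the members (quartiles 0.49 and 1.20) and 0.0016 over all probe sets. Both SA arrays lay above all 3 water arrays for 103 members, and below them for 5. Over all probe sets these shares were 27.9% and 25.2%. A rise of at least 2-fold on this scale that passed was found for 43 members, or 37.4%, and for 2.18% of all probe sets. The mean log2 level of the members was 7.39 and 7.38 on the SA arrays, against 6.5, 6.49 and 6.53 on the water arrays. Both tables were normalized separately, so a level in the ssn2 triple cannot be set against one in the other genotypes.

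For comparison, 395 probe sets rose in the double but had an effect under 0.5 of that in the brca2a triple, falls included. Of these, 154 (39.0%) rose in the ssn2 triple and 80 fell, with a median effect of 0.11. In that set 35 probe sets (8.86%) rose at least 2-fold. The difference between these sets and the members was not tested. When the members were chosen without water replicate 2 of the double, 172 of 211 (81.5%) rose in the ssn2 triple and 14 fell. The 3-prime to 5-prime ratio of the GAPDH control probe sets also lay apart between SA and water arrays of the ssn2 triple, at 0.34 and 0.40 after SA against 0.21 to 0.28 after water (log2), and its part in the result was not tested.

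**Figure D2:**
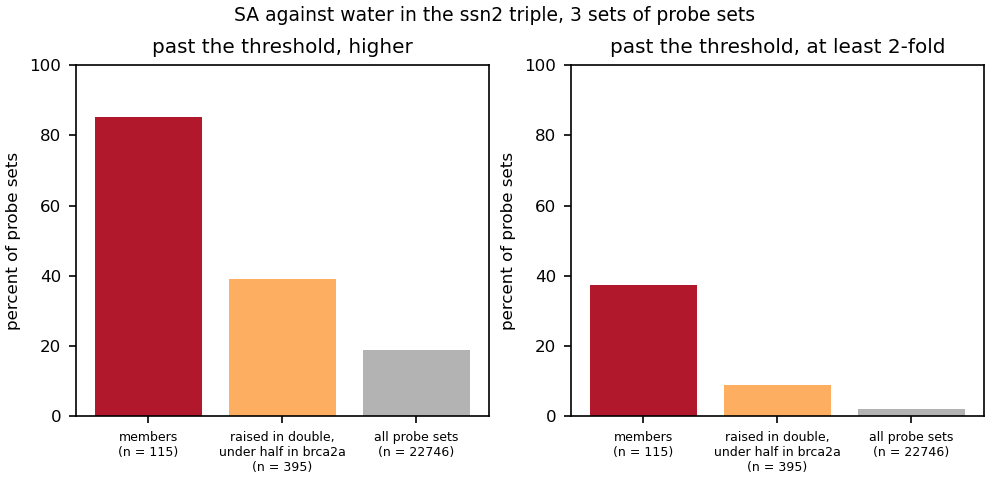
Percent of probe sets that rose with SA in the ssn2 triple (left) and that rose at least 2-fold (right), for the members, for probe sets raised in the double with less than 0.5 of that in the brca2a triple, and for all probe sets. The members stand at 85.2% and 37.4%, and all probe sets at 18.8% and 2.18%.

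The sizes of the effects are set side by side as a description. The SA effect in the ssn2 triple was above that in the brca2a triple for 57 members and above that in the double for 45. Over the 115 members it had Spearman rho = 0.24 with the effect in the brca2a triple and 0.063 with that in the double (Pearson r = 0.25 and 0.27), as a description over points that share their arrays and a choice on 2 of the 3 measures.

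**Figure D3:**
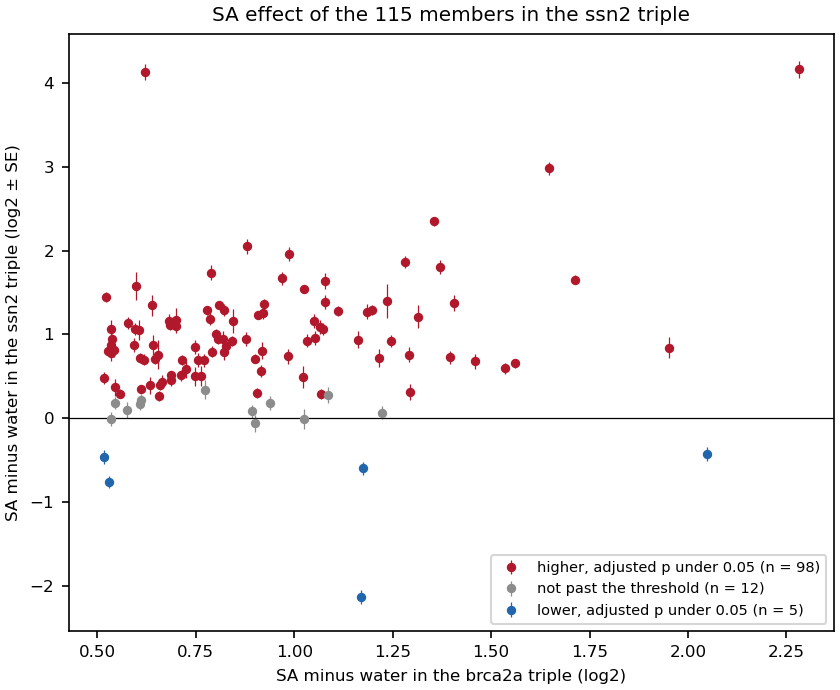
SA effect of each member in the brca2a triple (horizontal axis, log2) against that in the ssn2 triple (vertical axis, log2, bars show the standard error), coloured by the test in the ssn2 triple. 98 members lie above 0 and passed, 12 did not pass and 5 lie below 0 and passed.

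Of the 115 members, 49 had a probe set listed with 1 gene, for 48 loci, and 5 of these loci have a symbol in the annotation. The platform table does not list 65 of the others and gives several genes for 1. The 48 loci were sorted by the protein family they are generally known to encode. That sorting was made after the members were known, and the family of a locus without a symbol comes from general knowledge of Arabidopsis genes. Of the 49 probe sets, 40 (81.6%) rose in the ssn2 triple, 1 fell and 8 did not pass. Over all 115 members 85.2% rose there, and over all probe sets 18.8%. The counts by family below stand beside these shares, and no family was tested against the rest. Effects are log2 differences, and those in the ssn2 triple have the standard error of the fit.

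Protein kinases gave 9 loci, of which 6 are receptor-like kinases, and all 9 rose in the ssn2 triple by 0.51 to 1.80. AT1G35710, a leucine-rich repeat receptor-like kinase, had intensities of 435, 378 and 399.7 in the brca2a triple after SA against 186, 145 and 115 after water. It read 165 and 150.3 in the ssn2 triple after SA against 32.2, 38.5 and 31.0 after water, and 964, 1005 and 1082 in the double after SA against 162, 247 and 162 after water. The SA and water arrays do not overlap in the ssn2 triple, which the choice did not use. Its SA effect in the ssn2 triple was 1.80 ± 0.082 (adjusted p = 3.3e-05), beside 1.37 in the brca2a triple and 2.35 in the double. AT4G11900, an S-locus lectin receptor-like kinase, had an effect of 1.23 in the brca2a triple and of 0.76 in the double, the reverse order of the other 8 kinase genes. It read 87.2, 118 and 94.0 in the brca2a triple after SA against 26.0, 38.8 and 34.6 after water, and 89.4, 92.1 and 91.6 in the double after SA against 47.4, 67.7 and 31.6 after water; the choice required that these arrays do not overlap. In the ssn2 triple it rose by 1.40 ± 0.20 (adjusted p = 0.0026), with 129 and 85.4 after SA against 30.4, 22.1 and 38.8 after water.

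The leucine-rich repeat receptor kinase gene AT4G08850 rose by 0.81 ± 0.10 (adjusted p = 0.0015) in the ssn2 triple, and the second S-locus lectin kinase gene, AT1G11330, by 0.74 ± 0.090 (adjusted p = 0.0014). AT2G23200 and AT5G39020, which belong to the CrRLK1L and malectin-domain receptor kinases of the cell surface, rose by 0.69 and 0.94 (adjusted p = 0.0013 and 0.00018). The kinase genes AT5G25440, AT3G57700 and AT1G16670 rose by 1.07, 0.94 and 0.51 (adjusted p = 0.00018, 0.00043 and 0.0019). AT3G57700 read 27.8 and 32.7 in the ssn2 triple after SA against 9.06, 9.16 and 5.96 after water, where the pseudocount of 16 makes the log2 difference smaller than the ratio of intensities.

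Intracellular immune receptor genes and other leucine-rich repeat genes gave 8 loci, and 7 of them rose in the ssn2 triple. AT3G04210, a TIR-NBS gene, read 496, 569.6 and 468 in the brca2a triple after SA against 217, 187 and 197 after water and 188 and 183 in the ssn2 triple after SA against 36.1, 43.7 and 38.0 after water. It read 823, 694 and 725 in the double after SA against 182, 324 and 182 after water, where the highest water value is that of replicate 2. Its SA effect was 1.28 in the brca2a triple, 1.87 ± 0.071 (adjusted p = 1.8e-05) in the ssn2 triple and 1.68 in the double. AT4G36150, a TIR-NBS-LRR gene, rose by 0.59 ± 0.099 (adjusted p = 0.0054) in the ssn2 triple and the TIR-domain gene AT1G61100 by 0.88 ± 0.089 (adjusted p = 0.00071). AT5G45500 and AT5G45510, neighbours on the chromosome, encode leucine-rich repeat proteins and were the only adjacent pair among the 48 loci. They had almost the same SA effect in the brca2a triple (0.65 and 0.66) and in the double (0.90 and 0.90), while in the ssn2 triple AT5G45500 rose by 0.70 ± 0.057 (adjusted p = 0.00030) and AT5G45510 by 0.27 ± 0.057 (adjusted p = 0.013). The call of AT5G45510 ended without SA replicate 1 or 2 (adjusted p = 0.063 and 0.055).

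AT2G15042, a further leucine-rich repeat gene, rose by 0.78 ± 0.095 (adjusted p = 0.0015) in the ssn2 triple. AT2G24160 and AT4G14610 are transcribed pseudogenes in the annotation. AT2G24160 read 104, 115 and 106 in the brca2a triple after SA against 42.7, 44.7 and 48.1 after water, and 223, 255 and 241 in the double after SA against 49.7, 65.4 and 47.2 after water. In the ssn2 triple AT2G24160 rose by 0.49 ± 0.13 (adjusted p = 0.031), a call that ended with a pseudocount of 64 (adjusted p = 0.065), without water replicates 1 or 2 (0.076 and 0.096) and without SA replicates 1 or 2 (0.19 and 0.056). AT4G14610 had 0.18 ± 0.083 (adjusted p = 0.16) in the ssn2 triple, which did not pass.

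Enzymes of the cell wall and of glycans had 8 probe sets for 7 loci. Of these probe sets 5 rose in the ssn2 triple and 3 did not pass. AT4G34480, a glycosyl hydrolase of the beta-1,3-glucanase family, rose by 0.80 ± 0.047 (adjusted p = 8.4e-05) and AT1G02360, a chitinase gene, by 0.82 ± 0.088 (adjusted p = 0.00089). Both enzyme families can break down fungal wall polymers. ENGase85A, which encodes a cytosolic enzyme that releases N-glycans from proteins, rose by 0.39 ± 0.11 (adjusted p = 0.032). Its call ended with a pseudocount of 64 (adjusted p = 0.06), without water replicates 1 or 2 (0.091 and 0.058) and without SA replicates 1 or 2 (0.10 and 0.18). The sugar transferase-like locus AT5G44820 had 2 probe sets, both members, with 0.43 and 0.35 in the ssn2 triple (adjusted p = 0.0065 and 0.0023). The probe set with 0.35 had mean intensities of 14.1 after SA and 7.63 after water there, under the pseudocount of 16.

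The other 3 wall genes did not pass in the ssn2 triple. AT4G18340, a second beta-1,3-glucanase-like gene, read 184, 149.9 and 154 in the brca2a triple after SA against 73.7, 53.0 and 55.7 after water, and 142, 156 and 154 in the double after SA against 58.8, 90.8 and 70.3 after water. In the ssn2 triple it read 34.0 and 28.9 after SA and 30.7, 25.9 and 31.2 after water, which overlap, with an effect of 0.068 ± 0.079 (adjusted p = 0.61). XTH33, a xyloglucan endotransglucosylase gene, had -0.061 ± 0.098 (adjusted p = 0.73), beside 0.90 in the brca2a triple and 0.90 in the double. CSLC04, which encodes a synthase of the xyloglucan backbone, had 0.18 ± 0.071 (adjusted p = 0.11). The signs of AT4G18340 and XTH33 in the ssn2 triple depended on single arrays: -0.010 for AT4G18340 without SA replicate 1, and 0.020 and 0.022 for XTH33 without water replicate 2 and without SA replicate 1.

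Among the protease genes, AT1G49050 rose by 1.16 ± 0.083 (adjusted p = 0.00018) in the ssn2 triple, and AT4G16563, which also encodes an aspartyl protease, had 0.086 ± 0.077 (adjusted p = 0.49). AT1G72060, which encodes a small protein of the protease inhibitor type, rose by 1.21 ± 0.14 (adjusted p = 0.0011). It read 385, 226 and 375 in the brca2a triple after SA against 99.9, 126 and 134 after water and 94.0 and 124 in the ssn2 triple after SA against 43.8, 38.9 and 31.0 after water. It read 439, 504 and 452 in the double after SA against 106, 315 and 112 after water, again with the highest water value on replicate 2.

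**Figure D4:**
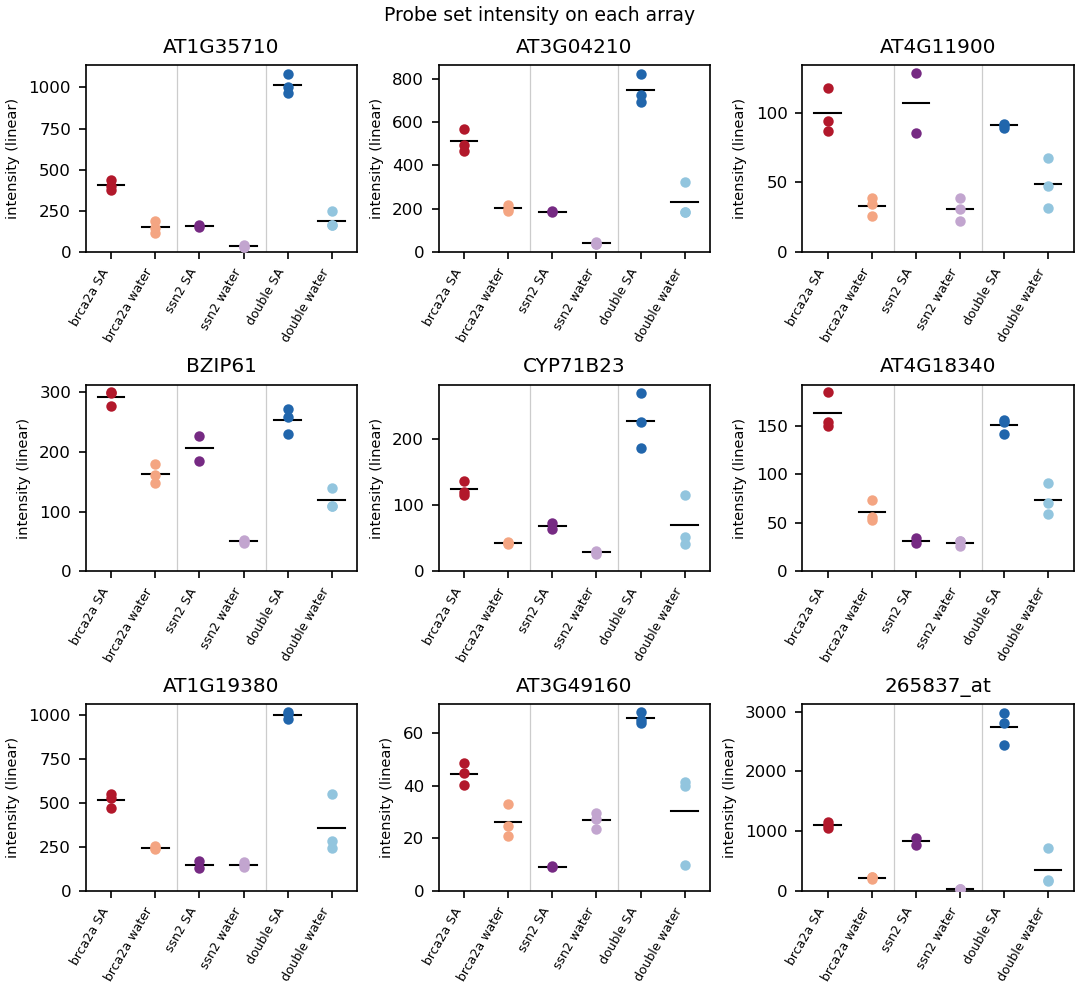
Linear intensity on each array for 8 named members and 1 unlisted probe set, by group, with a line at each group mean. In AT1G35710, AT3G04210, AT4G11900, BZIP61, CYP71B23 and 265837_at the SA arrays lie above the water arrays in all 3 genotypes, which the choice required outside the ssn2 triple. In the ssn2 triple AT4G18340 and AT1G19380 overlap and AT3G49160 is lower after SA.

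Enzymes of small-molecule metabolism had 9 loci, of which 8 rose in the ssn2 triple and 1 fell. The cytochrome P450 gene CYP71B23 read 136, 115 and 120.2 in the brca2a triple after SA against 41.0, 44.4 and 43.1 after water and 72.5 and 64 in the ssn2 triple after SA against 30.7, 29.2 and 25.5 after water. Its SA effect was 1.25 in the brca2a triple, 0.92 ± 0.075 (adjusted p = 0.00030) in the ssn2 triple and 1.59 in the double. The methyltransferase-like genes AT2G32160 and AT4G22530 rose by 1.09 ± 0.079 (adjusted p = 0.00019) and 1.35 ± 0.13 (adjusted p = 0.00056) in the ssn2 triple. AT3G51450, a strictosidine synthase-like gene, had nearly the same effect in the brca2a triple (1.05), in the ssn2 triple (0.95, adjusted p = 0.00043) and in the double (1.02). AT2G40600, whose product has a macro domain that acts on ADP-ribose compounds, rose by 0.87 ± 0.083 (adjusted p = 0.00056). The 2-oxoglutarate-dependent oxygenase gene AT3G19010 and the alpha/beta hydrolase gene AT1G17430 rose by 0.87 and 0.72 (adjusted p = 0.0027 and 0.0029). AT5G42250, an alcohol dehydrogenase-like gene, rose by 0.29 ± 0.059 (adjusted p = 0.011) in the ssn2 triple, beside 1.07 in the brca2a triple and 1.13 in the double. That call ended without SA replicate 1 or 2 (adjusted p = 0.054 and 0.058).

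AT3G49160, of the pyruvate kinase family, was the only named member that fell in the ssn2 triple, with -0.76 ± 0.072 (adjusted p = 0.00054). It read 9.0 and 9.35 in the ssn2 triple after SA against 23.5, 27.3 and 29.7 after water. In the brca2a triple it read 40.1, 44.6 and 48.6 after SA against 33.1, 20.7 and 24.5 after water. In the double it read 63.8, 65.0 and 68.0 after SA against 40.0, 9.8 and 41.2 after water, where replicate 2 had the lowest water value and not the highest. Without that replicate the effect of AT3G49160 in the double was 0.53, under the limit of 0.7, so that its place in the set rests on 1 array.

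All 4 genes of regulators rose in the ssn2 triple. BZIP61, a bZIP transcription factor gene, read 298, 276 and 299.7 in the brca2a triple after SA against 148, 179 and 160.5 after water and 226 and 185 in the ssn2 triple after SA against 53.2, 50.3 and 47.2 after water, and the ssn2 arrays do not overlap. Its SA effect was 0.79 in the brca2a triple, 1.74 ± 0.091 (adjusted p = 5.6e-05) in the ssn2 triple and 1.0 in the double. AT2G41090, which encodes a calmodulin-like calcium-binding protein, read 6437 and 7050.3 in the ssn2 triple after SA against 2492, 2444 and 2423 after water. It read 4210.2, 4189 and 4039 in the brca2a triple after SA against 2960.3, 2830.2 and 2857 after water, and rose by 1.45 ± 0.058 (adjusted p = 2.2e-05) in the ssn2 triple, beside 0.52 in the brca2a triple and 0.85 in the double. AT3G57480, a zinc finger protein gene, and AT3G45620, a WD40-repeat protein gene, rose by 0.95 and 0.72 (adjusted p = 0.00054 and 0.00038).

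**Figure D5:**
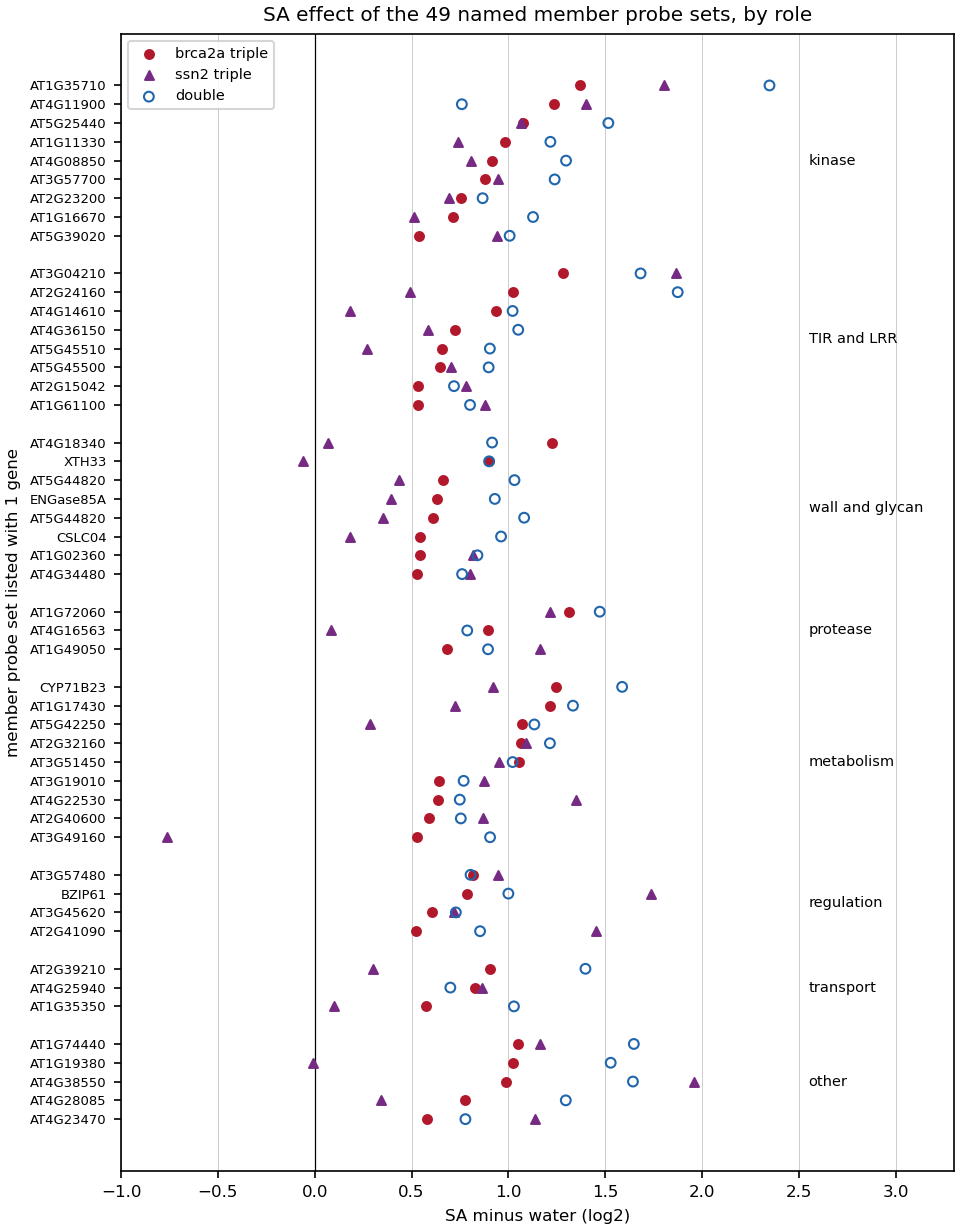
SA effect (log2) of the 49 member probe sets listed with 1 gene in the brca2a triple, the ssn2 triple and the double, sorted by protein family. The ssn2 triangles lie right of 0 for 46 of the 49 probe sets, and at or left of 0 for XTH33, AT1G19380 and AT3G49160. Over all 22746 probe sets the effect in the ssn2 triple was above 0 for 11497.

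Of 3 genes of transport and trafficking, AT4G25940, which encodes a clathrin adaptor-like protein, rose by 0.87 ± 0.058 (adjusted p = 0.00014) in the ssn2 triple and AT2G39210, of the major facilitator family, by 0.30 ± 0.064 (adjusted p = 0.013). The call of AT2G39210 ended without water replicate 1 (adjusted p = 0.0502) and without SA replicates 1 or 2 (0.076 and 0.055). AT1G35350, which encodes an EXS-domain protein related to the phosphate exporter PHO1, had 0.098 ± 0.10 (adjusted p = 0.55). Among the remaining 5 loci AT4G38550, AT1G74440 and AT4G23470 rose by 1.96, 1.16 and 1.14 (adjusted p = 2.5e-05, 0.00019 and 0.00014). The probe set of AT4G38550, a phospholipase-like gene, is marked by the manufacturer's suffix as shared between transcripts, so its value may hold more than 1 gene. AT4G28085 had 0.34 ± 0.11 (adjusted p = 0.056), and passed with a pseudocount of 1 (0.0098), after quantile normalization (0.036), in the series value table (0.0092) and with a variance trend (0.0056). Its levels in the ssn2 triple were low, at 12.6 and 20.3 after SA against 9.78, 10.5 and 7.98 after water, around the pseudocount of 16. AT1G19380 had -0.011 ± 0.12 (adjusted p = 0.97), with 128 and 168 in the ssn2 triple after SA against 152, 161 and 133 after water, while it read 471, 549.6 and 525 in the brca2a triple after SA against 238, 245 and 252 after water and 1005, 978 and 1015 in the double after SA against 244, 551 and 280.3 after water. The effect of AT1G19380 in the ssn2 triple was 0.0064 and 0.043 without water replicates 1 and 2 and 0.16 without SA replicate 1.

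The 66 members without a name of their own include the largest effects. Of these, 58 (87.9%) rose in the ssn2 triple, beside 85.2% of all members, 4 fell and 4 did not pass. Probe set 265837_at had the largest SA effect of all members in each genotype. It read 1107, 1056 and 1146 in the brca2a triple after SA against 223, 189.8 and 231 after water. It read 766 and 886 in the ssn2 triple after SA against 28.7, 28.1 and 36.1 after water, and 2433, 2975 and 2806 in the double after SA against 171, 710.1 and 183 after water. Both SA arrays of the ssn2 triple lie above every water array. Its effect was 2.28 in the brca2a triple, 4.16 ± 0.099 (adjusted p = 3.8e-06) in the ssn2 triple and 3.19 in the double. Probe set 247013_at was close to the lower limits of the choice, with 0.62 in the brca2a triple and 0.71 in the double, but rose by 4.13 ± 0.091 (adjusted p = 3.3e-06) in the ssn2 triple, at 848 and 1029 in the ssn2 triple after SA against 38.8, 35.7 and 40.2 after water. Probe set 259417_at went the other way. It read 38.5 and 42.5 in the ssn2 triple after SA against 246, 209 and 240.2 after water, an effect of -2.13 ± 0.082 (adjusted p = 1.8e-05). It read 502, 198 and 426 in the brca2a triple after SA against 182, 113 and 152 after water, an effect of 1.17, and 549, 478 and 525 in the double after SA against 207, 276 and 185 after water, an effect of 1.18. These 3 probe sets were singled out after their values were seen.

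Few established genes of SA signalling and of the secretory pathway could be looked up among the members. Lists of SA synthesis, perception, metabolism and output and of the endoplasmic reticulum and secretory pathway held 58 loci. Of these loci 11 had a probe set listed with 1 gene, and none of the 11 was a member. The other loci of these lists have no probe set listed with 1 gene, so whether they belong to the members could not be looked up. Of the 11, 5 rose in the ssn2 triple and none fell, beside 18.8% and 14.5% of all probe sets. The glutaredoxin gene GRX480 had an SA effect of 0.11 in the brca2a triple, 0.11 in the ssn2 triple (adjusted p = 0.59) and 2.46 in the double. The transcription factor gene WRKY53 had 0.0089 in the brca2a triple, 0.17 in the ssn2 triple (adjusted p = 0.16) and 1.93 in the double. UGT76B1, which encodes a glucosyltransferase of SA and isoleucic acid, rose in the ssn2 triple by 0.30 ± 0.057 (adjusted p = 0.0094), beside 0.36 in the brca2a triple and 0.89 in the double. BSMT1, a methyltransferase gene for SA, had 1.33 in the brca2a triple, 0.0050 in the ssn2 triple (adjusted p = 0.96) and 0.070 in the double. The value of 1.33 leans on 1 SA array of the brca2a triple, which read 233. The mean intensities of BSMT1 in that genotype were 97.5 after SA and 16.6 after water. Of the 5 measured genes of the endoplasmic reticulum list, 4 rose in the ssn2 triple by 0.22 to 0.52. One of them, the co-chaperone gene ATERDJ3B, had 0.32 in the brca2a triple, 0.26 in the ssn2 triple (adjusted p = 0.014) and 0.93 in the double. SAG101 (0.24), UGT74F1 (-0.040) and CRT1b (-0.16) did not pass in the ssn2 triple (adjusted p = 0.15, 0.74 and 0.12).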

How the data were processed

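Total RNA was hybridised to ATH1 arrays, 12 for the brca2a triple and the double and 5 for the ssn2 triple. Both deposited tables hold linear intensity values per probe set, made by the authors with PLIER per the submitters' processing notes (version not given in the sources used here), and each was normalized on its own. A value table deposited with the series, on a log2 scale, was used as an alternative. Control probe sets (AFFX) were left out and log2(intensity + 16) was taken. The test of SA against water in the ssn2 triple used limma 3.58.1 in R 4.3.3 (lmFit and eBayes, 5 arrays, Benjamini-Hochberg adjusted p over 22746 probe sets), and was tested on simulated data. Other values were computed in Python 3.11.15 with pandas 2.3.3 and numpy 2.4.6. The number of arrays limits the precision.

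Gene names come from the platform annotation and the RefSeq table of assembly TAIR10.1, and no sequences were used here. Named are the members listed with 1 gene, the 5 that fell in the ssn2 triple and the 2 unlisted probe sets with the largest effect there, which is wider than the naming rule written down at the start. It was widened after values were seen, to complete the families. The members and lists were chosen with earlier results of these data known. Alternatives were the pseudocount, the scaling, a filter on dim probe sets, the value table, the replicate block, a variance trend, the limits of the choice and leaving out arrays.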

Additional observations from a re-analysis of the deposited data

Results flagged for a closer look

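Members whose SA arrays all lay below the water arrays in the ssn2 triple, while they lay above them in the brca2a triple and in the double, were 5. Over all probe sets, both SA arrays lay below all water arrays of the ssn2 triple for 25.2%, and 14.5% passed with a fall. The SA effect in the ssn2 triple was -2.13 for 259417_at, -0.76 for AT3G49160, -0.60 for 252374_at, -0.46 for 245731_at and -0.43 for 259466_at (log2). The difference between genotypes was not tested, and genotype and table cannot be told apart. The call of 245731_at ended without SA replicate 1 of the ssn2 triple (limma adjusted p = 0.056). AT3G49160 did not meet the conditions of the choice without water replicate 2 of the double, where its effect in the double was 0.53.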

How the results depend on the processing

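The 98 members that rose and 5 that fell in the ssn2 triple were 90 to 97 and 4 to 5 when each ssn2 array was left out in turn. Over the other settings planned they were 94 to 99 and 5, and 71 and 4 among the 80 brighter members. Of all 11373 brighter probe sets, 3693 passed with a rise and 2892 with a fall. Of 694 comparisons of named members with an alternative, 665 kept direction and side of the threshold. The sign turned for AT4G18340 (-0.010 to 0.15 with single arrays left out), AT1G19380 (-0.19 to 0.16) and XTH33 (-0.14 to 0.022), none of which passed. The median effect was 1.02 with a pseudocount of 1, 0.57 with 64, 0.81 after median centring, 0.95 among brighter probe sets and 1.02 in the series value table. Median centring of all arrays gave 3837 higher and 3880 lower probe sets. The choice itself gave 165 probe sets with a pseudocount of 1, 60 with 64, 130 with no condition on overlap, 63 with 0.75 of the effect kept, and 98 to 211 with single arrays left out. Chosen without water replicate 2 of the double (added after seeing the data), 172 rose and 14 fell, with a median of 0.76. The cause was not tested. Between groups, the deviations of same-numbered samples had correlations of -0.33 to 0.16. With 2 or 3 arrays per group, these values cannot decide whether replicate numbers pair the samples. With the replicate number as a block, 99 members rose, 5 fell and 7001 probe sets passed.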
